A study of Sus scrofa with 6 samples.

Results

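MicroRNA-21 (miR-21) was followed with the 3 experimental probes that carry its number among the 742 experimental probes of the array, of which 188 stand for mature pig miRNAs. They were found by name. ssc-miR-21 is the mature pig probe, and miR-21-5p-44 and miR-21-3p-58304 are further probes with a miR name. The names place miR-21-5p-44 on the 5p arm of the hairpin and miR-21-3p-58304 on the 3p arm, and ssc-miR-21 has the 5p sequence. The RNAs came from tooth germs of miniature pig embryos, removed under a microscope. Incisors, canines, premolars and molars of the deciduous dentition were taken at embryonic days 40, 50 and 60, which makes 12 RNAs with 1 per tooth type and day. The labels name no treatment or genetic change of the animals and do not mention pooling. The RNAs were hybridised in pairs, 1 in Cy3 and 1 in Cy5, on 6 arrays with 4 spots for each probe.

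A miRNA is cut as a duplex from a hairpin RNA, and one arm is usually loaded into an Argonaute protein, where bases 2 to 8, the seed, guide it to messenger RNAs that it holds down. For miR-21 the loaded arm is the 5p arm, and the 3p arm is mostly lost. In human and mouse cells miR-21 is known to hold down PDCD4, which limits translation, and inhibitors of Ras signalling such as SPRY1. It is induced by STAT3 and by TGF-beta signalling and is known from studies of fibrosis, inflammation and tumours. In the RefSeq gene table of the pig (assembly Sscrofa11.1), the gene MIR21 stands between PTRH2 and TUBD1.

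The target sequences of the probes, as deposited with the spots, are shown because they decide which probes read the same RNA. They run 5′ to 3′ with the seed in capitals, and the fourth is the only other probe on the array with the seed of miR-21-5p.
miR-21-5p-44: uAGCUUAUcagacugauguugac
ssc-miR-21: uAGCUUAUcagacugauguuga
miR-21-3p-58304: aACAGCAGucgaugggcugucu
PN-590-5p-31984: gAGCUUAUucauaaaaguacag
The target of ssc-miR-21 has 22 bases and equals the first 22 bases of the 23-base target of miR-21-5p-44, which has 1 further base at its 3′ end. These probes therefore address the same miRNA and are not independent readings of it. The seed AGCUUAU occurs in 3 of the 742 probes. PN-590-5p-31984, named for miR-590-5p, shares 1 of the 14 bases after the seed with ssc-miR-21. The 3p probe has another seed, ACAGCAG, which 1 other probe carries.

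Each level below is a normalised log2 intensity, the mean of 4 spots after background correction and scaling, and its SD is that of the 4 spots. A probe counted as detected when its mean spot intensity exceeded a background surface, drawn through the blank spots, by over 3 of their SDs. By this rule miR-21-5p-44 was detected in 12 of 12 RNAs, ssc-miR-21 in 6 and miR-21-3p-58304 in 3, and all 3 probes were among the 656 tested, which had to be detected in at least 3 RNAs. Blank spots had medians of 39.2 to 273 per RNA, and 266 to 732 probes were detected per RNA, on every array more in the left than in the right density column. The array that held the day-50 and day-60 molars stood apart from the other 5. Its spike-in controls had medians of 410 and 279, against 755 to 1672 in the other 10 RNAs, and 176 and 114 of its probes lay above 1000, against 37 to 92. The number of arrays limits the precision of every value.

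The 5p arm was brighter in the later molars, which shared that array, than in any other germ. The mean deposited intensity of miR-21-5p-44 was 4039 in the day-50 molar and 2246 in the day-60 molar, against 109 to 520 in the other 10 RNAs. Single spots ran from 3861 to 4419 in the day-50 molar and from 2057 to 2560 in the day-60 molar. The brightest spots of the arrays reached 39059 to 59187, so the miR-21 spots lay far below the top of the scale. Set against the background surface at the same place, the probe stood at 15 and 22.7 times its value in the day-50 and day-60 molars, and at 1.53 to 4.2 times in the other 10 RNAs. This ratio was 1.67, 3.12 and 2.05 in the incisor on days 40, 50 and 60, and 1.79, 3.14 and 2.67 in the canine. In the premolar it was 2.75, 1.53 and 4.2 on these days, and in the day-40 molar it was 2.45. In blank SDs the distance was 211 and 236 in the later molars, against 14.1 to 57.5 elsewhere. The lowest later molar spot thus lay above every spot of the other germs, and the values of these sets of RNAs did not overlap. Many other probes were separated in the same way. By their levels, both later molars lay above the other 10 RNAs for 136 of 656 tested probes (20.7%). Without scaling between arrays this held for 363 probes (55.3%).

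ssc-miR-21 gave a similar picture at the level of detection. Its mean intensity was 1144 in the day-50 molar, 49.3 blank SDs above the surface, and 430 in the day-60 molar, 36.8 blank SDs above it. Elsewhere it was detected only in the day-40 incisor (3.56 SDs), the day-40 canine (4.14), the day-50 canine (3.90) and the day-50 premolar (4.23), close to the limit of 3. All 4 of these RNAs lay in the left density column of their array, so detection there and column cannot be told apart. In the other 6 RNAs, which included the day-40 molar and the day-60 incisor, canine and premolar, the probe was not above background.

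The 3p arm did not share this. miR-21-3p-58304 was detected in the day-40 incisor (3.96 SDs), the day-40 canine (4.02) and the day-50 premolar (4.07), again all in the left column. In the day-50 and day-60 molars it lay at -0.62 and -0.69 blank SDs, below the surface. The probe with the shared seed, PN-590-5p-31984, also lay below the surface in the later molars, at -3.20 and -2.58 SDs. It was detected in 4 other RNAs.

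After normalisation the order of the RNAs for miR-21-5p-44 was led by the day-60 molar at 9.88 ± 0.11 (SD of 4 spots) and the day-50 molar at 9.88 ± 0.06, which did not differ beyond their spots. The day-50 incisor followed at 8.58 ± 0.06, which was 1.29 below the day-50 molar. Next came the day-60 incisor at 8.38 ± 0.13 and the day-50 canine at 8.21 ± 0.05, each apart from its neighbours in the order by more than the combined SD of the spots. The day-60 canine (8.04 ± 0.12), the day-60 premolar (7.97 ± 0.18), the day-40 premolar (7.94 ± 0.18), the day-50 premolar (7.83 ± 0.16) and the day-40 incisor (7.70 ± 0.08) formed a run in which no neighbours differed beyond their spots. The day-40 canine was lower at 7.53 ± 0.12, and the day-40 molar was lowest at 7.08 ± 0.23. Below the later molars this order depended on the scaling. The day-40 incisor was lowest without scaling between arrays (7.02, against 7.10 in the day-40 molar). With median centring of each RNA the day-50 canine held the third place (1.98 above the median probe), and the day-40 molar (0.86) lay above the day-50 premolar, the day-40 canine and the day-40 incisor.

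For ssc-miR-21 the day-50 molar read 8.10 ± 0.11 and the day-60 molar 7.93 ± 0.12, a gap just beyond the spots. The third place, the day-50 canine, was 1.51 below the day-60 molar. The other 10 RNAs ran from 6.20 in the day-40 molar to 6.42 in the day-50 canine, and no neighbours among them differed beyond their spots. Levels of miR-21-3p-58304 spanned 6.08 to 6.44, with the day-50 incisor lowest. The later molars were on top there too, at 6.44 and 6.42, but without being above background. Over the 12 RNAs the levels of the 5p probes had r = 0.91, and r = 0.53 over the 10 RNAs other than the later molars. For miR-21-5p-44 and the 3p probe r was 0.38 over the 12 RNAs and -0.73 over those 10. These correlations describe RNAs that share arrays in pairs, and most ssc-miR-21 and 3p levels among them are near background.

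By tooth type, miR-21-5p-44 averaged 8.22 ± 0.46 in incisors, 7.93 ± 0.36 in canines, 7.91 ± 0.08 in premolars and 8.95 ± 1.62 in molars (SD, n = 3 RNAs of different days). Molars had the widest spread, also without scaling and with median centring (SD 2.56 and 2.14). The narrow spread of premolars was 0.31 without scaling and 0.52 with median centring. The groups overlapped for every pair of tooth types. In bulk germs, more cells that hold miR-21 and more miR-21 per cell cannot be told apart. Differences between tooth types were tested in limma with tooth type, day and dye as terms and the array as a random block. None of the 3 miR-21 probes passed the F test over tooth types, which 6 of the 656 tested probes (0.915%) passed. The adjusted p was 0.945 for miR-21-5p-44, 0.681 for ssc-miR-21 and 0.574 for the 3p probe.

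The posterior germs (premolar and molar) were also set against the anterior ones (incisor and canine). The log2 difference was -0.12 ± 0.29 (SE, adjusted p = 0.823, limma) for miR-21-5p-44 and 0.09 ± 0.20 (adjusted p = 0.803) for ssc-miR-21. No probe at all passed this contrast (0 of 656, 0%), with 139 at an unadjusted p below 0.05. These values moved most on leaving out the day-40 molar. Without that RNA the difference was 0.76 for both probes and passed in limma (adjusted p = 0.0417 for miR-21-5p-44 and 0.000584 for ssc-miR-21), and ssc-miR-21 also passed the F test over tooth types (adjusted p = 0.00124). Without the array of the day-40 molar and canine, ssc-miR-21 passed both tests as well (adjusted p = 0.00299 and 0.00515). In each of these fits the only molars left were the later molars, which share an array with no other germ. An effect of tooth type and that of this array cannot be told apart there. On the 4 arrays that held a posterior and an anterior germ, the difference within the array averaged -0.21 ± 0.32 for miR-21-5p-44 (SD, n = 4 arrays, posterior higher on 1 of 4, exact two-sided sign-flip permutation p = 0.375) and -0.07 ± 0.04 for ssc-miR-21 (posterior higher on 0 of 4, exact permutation p = 0.125, the smallest that 4 arrays allow). In each of these pairs at least 1 RNA was not above background for ssc-miR-21, so its sign there is that of levels near background. The posterior germ lay in the right density column, except on the array of the day-60 canine and day-50 premolar, which also pairs different days. Without the later molar array the differences in the limma fit were -0.51 ± 0.19 (adjusted p = 0.320) and -0.10 ± 0.05 (adjusted p = 0.375).

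Across days, miR-21-5p-44 averaged 7.56 ± 0.36 on day 40, 8.62 ± 0.89 on day 50 and 8.57 ± 0.90 on day 60 (SD, n = 4 RNAs of different tooth types). With the molars left out the means were 7.72 ± 0.21, 8.21 ± 0.38 and 8.13 ± 0.22 (n = 3). In the incisor the level on day 50 was 0.88 above that on day 40 on the log2 scale and on day 60 it was 0.68 above, which is 1.84-fold and 1.61-fold. The canine stood 0.69 and 0.51 above its day 40 on days 50 and 60, which is 1.61-fold and 1.43-fold. The premolar stood at -0.11 and 0.03. The molar stood 2.80 and 2.81 above its day 40, which is 6.95-fold and 6.99-fold. Day 60 was thus above day 40 in 4 of 4 tooth types, but by less than the SD of the spots in the premolar. The sizes depended on the scaling. The molar steps were 4.43 and 4.44 (21.5-fold and 21.6-fold) without scaling, and 3.81 and 3.59 with median centring. The premolar step to day 50 was 0.20 without scaling and -0.31 with median centring. Its step to day 60 was 0.61 (1.53-fold) and 0.70 (1.63-fold), and that of the canine 0.13 and 0.47, in these settings.

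For ssc-miR-21 after scaling, the molar was the one tooth type with a step from day 40 beyond its spots. The probe was not above background in the day-40 molar, so the step is a bound. The day-50 molar was at least 3.62-fold and the day-60 molar at least 3.21-fold higher, taken against the lowest level detected in the day-40 molar. The levels differed by 3.29 and 3.11 on the log2 scale without scaling and by 3.05 and 2.39 with median centring. In the other 3 tooth types, after scaling, days 50 and 60 lay between -0.04 and 0.12 of day 40 on the log2 scale. The 3p probe had steps of -0.26 to 0.14.

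In the limma fit, miR-21-5p-44 was 1.05 ± 0.70 higher on day 60 than on day 40 on the log2 scale (SE, adjusted p = 0.722) and 1.02 ± 0.70 higher on day 50 than on day 40 (adjusted p = 0.641). ssc-miR-21 had a day 60 minus day 40 difference of 0.41 ± 0.47 (adjusted p = 0.945). The differences did not exceed the spread between RNAs. None of the 3 probes passed, against 5 of 656 probes (0.762%) for day 60 against day 40 and 3 (0.457%) for day 50 against day 40. Over all 3 days together, limma's F test called 0 of 656 probes (0%), with 102 at an unadjusted p below 0.05. The adjusted p there was 0.717 for miR-21-5p-44, 0.808 for ssc-miR-21 and 0.978 for the 3p probe. Since 2 arrays carried all day-40 RNAs and nothing else, the effect of day 40 and that of those arrays cannot be told apart. Without the later molar array the day 60 minus day 40 difference of miR-21-5p-44 was 0.36 ± 0.30 (adjusted p = 0.761), the day 50 minus day 40 difference was 0.49 ± 0.29 (adjusted p = 0.564), and that of ssc-miR-21 between days 60 and 40 was 0.01 (adjusted p = 0.973).

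RNAs that shared an array could be compared directly, without any scaling to other arrays. There was 1 hybridisation for each pair, so the ratios are sizes over 4 spots with no test. A ratio was counted where all 4 spots showed a difference of 2-fold or more with the same sign. This held for 4.1% of probes for the day-60 canine over the day-50 premolar, 3.97% for the day-40 molar over the canine, 3.4% for the day-40 premolar over the incisor, 5.7% for the day-60 premolar over the incisor, 10.8% for the day-50 incisor over the canine and 3.25% for the day-50 over the day-60 molar. No miR-21 probe met it on any array.

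Smaller ratios of miR-21-5p-44 had one sign in all 4 spots on 5 of 6 arrays. The day-40 molar was below the day-40 canine, with a log2 ratio of -0.45 and spots of -0.64 to -0.33. The day-60 premolar was below the day-60 incisor, at -0.42 with spots of -0.50 to -0.36. The day-50 incisor was above the day-50 canine, at 0.37 with spots of 0.21 to 0.45. These 3 ratios changed sign with median centring of each RNA in place of loess and scaling, to 0.13, 0.15 and -0.46, so their direction depends on the normalisation. The day-40 premolar stood above the day-40 incisor at 0.24 (0.12 to 0.44), the opposite of the day-60 pair of these tooth types. The day-60 canine stood above the day-50 premolar at 0.22 (0.01 to 0.43).

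The later molars themselves did not differ beyond their spots in miR-21-5p-44. The log2 ratio of the day-50 over the day-60 molar was -0.01, with spots of -0.10 to 0.05, which is smaller than the ratio of all but 1.48% of the probes measured on that array. For ssc-miR-21 it was 0.17, with all 4 spots above 0 (0.08 to 0.29), but the authors' deposited value was -0.03. On the other 5 arrays ssc-miR-21 had ratios of -0.10 to 0.11, and miR-21-3p-58304 ran from -0.09 to 0.06 on all 6. The authors' deposited values for miR-21-5p-44 had the same sign as these ratios on all 6 arrays and were larger in size, with -0.71, -0.56, 0.60, 0.39, 0.34 and -0.11 in the order given here. For ssc-miR-21 they ran from -1.0 to 0.47 and for the 3p probe from -2.13 to 0.13. At least 1 RNA of each of these pairs, apart from the later molars for ssc-miR-21, was not above background for these probes.

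The difference between the later molars and all other germs was therefore set out across arrays. For miR-21-5p-44 the lower of the later molars lay 1.29 (2.45-fold) above the highest of the other 10 RNAs, and their mean was 1.93 (3.8-fold) above the median of those RNAs. For ssc-miR-21 these distances were 1.51 and 1.73 on the log2 scale, with no fold given because 6 of the other 10 RNAs were not above background. The separation was not particular to miR-21. On the later molar array both RNAs lay above the other 10 for 136 of the 656 tested probes (20.7%), and for 39 of the 176 tested mature pig probes. On the other arrays the same count gave 3.81%, 5.34%, 2.59%, 1.68% and 4.88%. Both later molars lay below the other 10 RNAs for 137 of the 656 probes, and the other arrays gave 13 to 32 such probes. By the size of the gap above the other 10 RNAs miR-21-5p-44 held place 42 of 656, and ssc-miR-21 place 35, or 13 among the mature pig probes. The largest gap was that of ssc-let-7f at 4.31, and ssc-miR-26a held place 15 at 2.97. Both later molars lay on that array and no other RNA did, so the array and the later molars cannot be told apart.

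The size of the gap depended on how the arrays were scaled to each other. Without scaling it was 3.22 (9.32-fold) for miR-21-5p-44 and 2.77 for ssc-miR-21, and the later molars then lay 0.50 above the other RNAs in the median of all probes. With median centring it was 2.47 (5.53-fold) and 2.15. The highest of the other RNAs for ssc-miR-21 in both of these settings was the day-60 canine, where it was not above background. Against the median of the other 10 RNAs, the mean of the later molars was 3.92 higher without scaling and 3.44 higher with median centring for miR-21-5p-44, and 3.16 and 2.58 higher for ssc-miR-21. Both 5p probes stood above all other RNAs in each of these settings. The 3p probe did so with scaling and without it, and not with median centring.

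Markers of the cell types that a germ could hold were read beside this difference, as the log2 of the summed levels of their probes with a pig or miR name. Mesenchymal probes (miR-199a, miR-199b, miR-214 and miR-140) summed to 15.35 and 15.01 in the day-50 and day-60 molars, against 14.09 to 15.37 in the other 10 RNAs, with 8 of 10 detected in each later molar. The probes of this list went both ways. In both later molars 3 lay above the other 10 RNAs, such as ssc-miR-199a-3p at 12.10 and 12.12 against 9.78 to 11.20. Below them lay 4, such as ssc-miR-140* at 7.21 and 7.63 against 9.09 to 12.45. Of all 656 tested probes, 136 lay above the other 10 RNAs in both later molars and 137 lay below them. Epithelial probes (miR-205, miR-429 and miR-184, 3 of the 8 listed names) summed to 12.31 and 12.79, against 12.39 to 13.98, with 3 of 6 detected and miR-184 not above background. The other listed names, miR-200a, miR-200b, miR-200c, miR-141 and miR-203, had tested probes whose names start with PN, and this sum left them out. The 2 tissues of a tooth germ were thus both detected in part by their markers. Muscle probes summed to 9.61 and 9.82, against 9.51 to 12.34, with ssc-miR-206 detected. The probe miR-206-3p-33411 and those of miR-1, miR-133a and miR-133b were not above background. A tested probe of miR-1 whose name starts with PN was left out. Blood cell probes summed to 9.27 and 9.34, against 9.06 to 12.50, with miR-451 detected and miR-142, miR-144 and miR-486 not above background. Tested PN probes of miR-223 and miR-486 were left out of this sum. The endothelial miR-126 probes summed to 9.08 and 9.56, against 8.79 to 11.17. Neural probes (miR-124, miR-9 and miR-128) were the one list above the range of the other RNAs, at 9.93 and 9.54 against 8.80 to 9.12. Of its 5 probes, ssc-miR-128 lay above the other 10 RNAs in both later molars, at 9.06 and 8.81 against 6.93 to 7.62, and ssc-miR-9-1 was detected in the day-50 molar, at 7.23 against 6.14 to 6.35, but not in the day-60 molar. The neuron-enriched miR-124 was not above background. The part of any of these cells in the miR-21 level was not tested.

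Among 78 mature pig probes detected in all 12 RNAs, the levels most like those of ssc-miR-21 were those of let-7f (r = 0.98), miR-27a (0.97), let-7a (0.97), miR-128 (0.96), let-7e (0.96) and let-7g (0.96), each over 12 RNAs. let-7f read 12 and 12.17 in the later molars, against 6.51 to 7.69 in the other RNAs, and miR-27a read 9.21 and 9.07, against 6.96 to 7.68. The lowest r belonged to miR-331-3p (-0.94), miR-455 (-0.93), miR-140* (-0.88) and miR-130b (-0.88). miR-331-3p read 7.33 in both later molars, against 9.04 to 10.31 elsewhere. These likenesses rest on the later molars. Over the 10 other RNAs r was -0.05 for let-7f, 0.67 for miR-27a and -0.08 for miR-331-3p, and over the 6 within-array ratios it was 0.09, 0.87 and -0.12. Only 1 of the 6 most alike probes was among the 6 without the later molar array, and likewise 1 by ratios.

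Since ssc-miR-21 was near background in 10 RNAs, the same measure was also taken from miR-21-5p-44, a choice made after the values were seen. The most alike were miR-23b (r = 0.95), miR-128 (0.95), miR-151-5p (0.94), miR-26a (0.94), miR-27a (0.94) and let-7e (0.93). Over the 10 other RNAs their r was 0.61 to 0.80, highest for miR-151-5p, and over the 6 within-array ratios it was -0.38 to 0.43. The lowest were miR-130a (-0.86), miR-221 (-0.85), miR-130b (-0.85) and miR-339 (-0.81), with -0.34 to -0.68 over the 10 other RNAs.

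Lists of miRNAs with a related background were read for day 60 against day 40, where the median of all 656 probes was 0.004 on the log2 scale. Of the miRNAs known from fibrosis and TGF-beta studies, 16 of 17 probes were tested. None passed, 12 had a positive difference and the median was 0.30. miR-199a-3p, a mesenchymal miRNA, stood at 1.14 ± 0.47 (adjusted p = 0.487, limma), with 12.10 and 12.12 in the later molars against 9.78 to 11.20. In both later molars 3 probes of this list lay above the other 10 RNAs and 5 lay below them. Among those below was ssc-miR-199a-5p, at 9.14 and 9.15 against 10.50 to 12.14. The probe ssc-miR-29b, for a miRNA that holds down collagens, stood at -0.44 ± 0.24 (adjusted p = 0.627). Another tested probe of this miRNA, miR-29b-3p-19778, stood at -0.09. Of the miRNAs induced in inflammation, 4 of the 6 listed names were matched, by 5 probes with a pig or miR name. All 5 were tested, none passed, 3 had a positive difference and the median was 0.09. The listed miR-223 had a tested probe whose name starts with PN, at 0.27, which these values left out. The probe miR-146a-5p-5923, for a miRNA that restrains NF-kappaB signalling, stood at 0.26 ± 0.09 (adjusted p = 0.377). The probe miR-155-5p-11894, for a miRNA of activated immune cells, read 7.73 and 7.94 in the later molars against 6.23 to 6.58 in the other 10 RNAs. Of all 656 tested probes, 20.7% lay above the other 10 RNAs in both later molars, and 137 probes lay below them. In this list 2 probes did so, and 1 lay below, miR-132-5p-38352 at 6.05 and 6.14 against 6.23 to 6.53.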

How the data were processed

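MicroRNAs of 12 tooth germ RNAs were measured on 6 dual-colour arrays. Per the labels' protocols, small RNAs were isolated on a filter and tailed with poly(A), and a tag was ligated for staining in Cy3 or Cy5. The deposited spot files hold linear mean intensities with no background removed, per the file headers. The authors' deposited table holds a log2 value for each probe on each array. Compared with the ratios computed here they ran as first-named over second-named RNA (r = 0.69 to 0.86 over 742 probes, medians 0.01 to 0.16), and their scale and centring stay unknown.

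A background surface was fitted through 716 blank spots per channel (loess, span 0.3) and corrected with normexp (offset 50). Arrays were normalised within by loess and between by Aquantile, and 4 spots averaged. RNAs were taken from column headings and dyes from labels, which disagree on column order for the later molar array. One array title gives day 60 for an incisor that its other labels give as day 50, which was used. Tests were two-sided in limma 3.58.1 (statmod 1.5.0, R 4.3.3) on 656 probes, with tooth type, day and dye as terms, the array as a random block (correlation 0.83, 5 residual degrees of freedom) and Benjamini-Hochberg adjustment at 0.05. With 1 RNA per condition, other days or tooth types stand in as replicates, so a p-value says nothing of the spread between animals. The scanner and image software are not given in sources used here. The fit was tested on simulated data. Named miRNAs were the miR-21 probes and the 6 most and 4 least like ssc-miR-21. From each background list, some of those with the smallest p were named, without ssc-miR-192 and ssc-miR-146b. ssc-miR-199a-5p was added as a probe below the other RNAs. One further background list is not reported here. The members and lists were chosen with earlier results of these data known. Alternatives changed the scaling, background, offset, filter, dye, block and spot average, or left out single RNAs or arrays.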

Additional observations from a re-analysis of the deposited data

Results flagged for a closer look

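Within each day the level of each miR-21 probe was compared over the 4 tooth types, which gave 9 groups of 4 RNAs. In a group of 4, an RNA was singled out where its gap to the nearest other exceeded Dixon's 95% critical value as a share of the whole range, which chance gives in about 1 of 20 groups. ssc-miR-21 in the day-50 molar, at 8.10, had a gap of 0.926 of the range. ssc-miR-21 in the day-60 molar, at 7.93, had a gap of 0.894. Outside the molars, however, this probe was not above background on day 60 or in the day-50 incisor. In the day-50 canine and premolar it lay close to the detection limit (3.90 and 4.23 blank SDs). The spread among those germs is thus that of levels near background, and the rate of 1 in 20 may not hold there. Both molar RNAs share an array, so these gaps are not independent. The same RNAs were highest for miR-21-5p-44 but did not pass this rule, with gaps of 0.632 on day 50 and 0.783 on day 60.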

How the results depend on the processing

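Of 448 recomputed values, 386 kept their direction and side of the threshold or moved by less than the spread of the spots. The day 60 minus day 40 difference of miR-21-5p-44 stayed positive and uncalled in all 30 alternatives. Without scaling between arrays the median over all 656 probes was 0.19 for this contrast and 0.10 for posterior minus anterior.

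The posterior minus anterior difference of miR-21-5p-44 turned to 0.24 without scaling, 0.57 with median centring and 0.40 without the array block. The cause was not tested. Over single RNAs and arrays left out, it ran from -0.54 to 0.76 and that of ssc-miR-21 from -0.14 to 0.76. The other ranges on leaving out were 0.36 to 1.73 (miR-21-5p-44, day 60 minus day 40), 0.37 to 1.75 (day 50 minus day 40) and -0.046 to 0.97 (ssc-miR-21, day 60 minus day 40). Adjusted p of the F test over tooth types ran from 0.00124 to 0.997 for ssc-miR-21 and from 0.0547 to 0.996 for miR-21-5p-44. Both lowest values came without the day-40 molar, which left only the later molars, on their own array, as molars. The correlation within arrays ran from -0.34 to 0.97.

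Among ratios of miR-21-5p-44, median centring gave 0.47 (day-60 canine over day-50 premolar), 0.13 (day-40 molar over canine), 0.15 (day-60 premolar over incisor), -0.46 (day-50 incisor over canine) and 0.22 (day-50 over day-60 molar). Without background correction the day-40 molar over canine ratio was -0.26 and the day-60 premolar over incisor ratio -0.26, and the day-60 premolar over incisor ratio was -0.35 with the median of the blank spots as background. Offset 16 gave 0.48 for the day-50 incisor over canine. The authors' values were -0.71 (day-40 molar over canine), 0.39 (day-40 premolar over incisor), -0.56 (day-60 premolar over incisor), 0.60 (day-50 incisor over canine) and -0.11 (day-50 over day-60 molar). Exchanging the later molar RNAs turns each ratio between them.

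The later molar gap was 3.22 without scaling and 2.47 with median centring for miR-21-5p-44, and for ssc-miR-21 it was 2.77, 2.15 and, without background correction, 0.95. Without scaling, 363 probes lay above on that array. Of the 6 probes most like ssc-miR-21, 1 was shared by ratios and 1 without the later molar array. Testing only probes detected in all 12 RNAs left no value for ssc-miR-21 and the 3p probe. Signal near background limits every ssc-miR-21 and 3p value outside the later molars. Pairing by replicate number was not possible, because the labels give no such numbers and 1 RNA per condition. Pairs within the 4 arrays that held a posterior and an anterior germ, added after seeing the data, gave -0.21 for miR-21-5p-44 and -0.0748 for ssc-miR-21.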
